A study of Mus musculus with 10 samples.

Results

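Chromatin accessibility was examined at 5 genes of the pathway that T cell receptor (TCR) signals induce: the transcription factor genes Egr1, Egr2 and Egr3, and Nab1 and Nab2, which encode corepressors of Egr proteins. The members were the accessible regions that overlapped one of these gene bodies or lay within 50 kb of a gene start, 84 of the 94823 regions in the table. Egr1 had 21 of them, Egr2 19, Egr3 16, Nab1 11 and Nab2 17. The rule used position only and no measured value. ATAC-seq, in which a transposase inserts adapters into open DNA, had been applied to invariant natural killer T (iNKT) cells sorted from the thymus as iNKT1 cells (CD27+ CD122+), the interferon-producing subset, or as iNKT2 cells (CD27+ CD122-), the interleukin-4-producing subset. The donors were BALB/c mice and mice of the SKG strain, whose germline Zap70 mutation on the BALB/c background weakens this TCR-proximal kinase in every T lineage cell throughout development. All mice were between 8 and 10 weeks old by the study's methods. Each strain gave 2 libraries of iNKT1 cells and 3 libraries of iNKT2 cells, 10 in 4 groups.

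Egr proteins are zinc finger transcription factors encoded by immediate early genes. Their transcription follows TCR engagement rapidly, through the cascade from Zap70 over Lat and Ras to MAP kinases, which act on serum response factor and its Elk partners, and through calcium and NFAT. Egr2 is required for the development of iNKT cells and binds Zbtb16, the gene of PLZF, the transcription factor behind the effector programme of iNKT cells. Nab1 and Nab2 have no DNA-binding domain of their own. They dock on Egr proteins and recruit repressive complexes that contain Chd4, and Nab2 is itself induced by Egr proteins and so acts as a feedback inhibitor. Accessibility was measured, not RNA or protein, and a region near a gene need not act on it.

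Sequences of 5 regions from the genotype comparison are shown first, as the central 300 bases of each on the plus strand of GRCm38, read from the RefSeq copy of that assembly. They are 3 of the 4 Egr2 regions that were lower in SKG iNKT2 cells, and, for Egr3 and Nab1, the region with the smallest p between genotypes, which at Egr3 did not pass (adjusted p = 2.3e-02 in iNKT1 and 0.38 in iNKT2). They are not all regions that the comparison turned on. Capitals mark matches, on either strand, to motifs named for Egr (GCGNGGGCG), NFAT (TGGAAA), AP-1 (TGANTCA), the cyclic AMP response element (TGACGTCA), ETS (CCGGAAGT) or Runx (TGTGGT) proteins, or to the CArG box of serum response factor. None of these windows overlapped an exon of a protein-coding gene, and no sequence is given for the Egr1 locus.
Egr2, 47463 bp upstream of the start (chr10:67487600-67487899): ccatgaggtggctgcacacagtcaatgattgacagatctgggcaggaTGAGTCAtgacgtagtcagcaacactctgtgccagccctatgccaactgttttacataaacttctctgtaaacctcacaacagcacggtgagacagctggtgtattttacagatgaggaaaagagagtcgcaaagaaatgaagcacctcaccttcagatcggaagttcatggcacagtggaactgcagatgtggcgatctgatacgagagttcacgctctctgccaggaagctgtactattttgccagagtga
Egr2, 37624 bp upstream (chr10:67497353-67497652): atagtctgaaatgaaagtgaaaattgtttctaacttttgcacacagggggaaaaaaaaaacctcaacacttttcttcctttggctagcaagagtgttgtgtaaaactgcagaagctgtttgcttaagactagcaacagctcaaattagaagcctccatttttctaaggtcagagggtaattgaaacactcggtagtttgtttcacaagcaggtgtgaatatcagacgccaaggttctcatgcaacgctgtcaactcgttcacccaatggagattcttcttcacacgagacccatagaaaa
Egr2, 22933 bp upstream (chr10:67512228-67512527): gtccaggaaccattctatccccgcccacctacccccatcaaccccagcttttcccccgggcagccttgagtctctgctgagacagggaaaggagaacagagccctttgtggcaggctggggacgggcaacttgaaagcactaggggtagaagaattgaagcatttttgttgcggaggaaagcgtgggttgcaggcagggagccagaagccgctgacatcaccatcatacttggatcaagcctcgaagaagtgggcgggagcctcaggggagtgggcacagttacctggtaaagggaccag
Egr3, 15241 bp upstream (chr14:70061648-70061947): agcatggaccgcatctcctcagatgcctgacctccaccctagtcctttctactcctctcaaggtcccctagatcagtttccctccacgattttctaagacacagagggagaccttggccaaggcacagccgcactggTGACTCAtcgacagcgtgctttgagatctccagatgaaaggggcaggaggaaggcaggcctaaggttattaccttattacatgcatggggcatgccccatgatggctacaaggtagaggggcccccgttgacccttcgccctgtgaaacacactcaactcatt
Nab1, 23583 bp upstream (chr1:52524277-52524576): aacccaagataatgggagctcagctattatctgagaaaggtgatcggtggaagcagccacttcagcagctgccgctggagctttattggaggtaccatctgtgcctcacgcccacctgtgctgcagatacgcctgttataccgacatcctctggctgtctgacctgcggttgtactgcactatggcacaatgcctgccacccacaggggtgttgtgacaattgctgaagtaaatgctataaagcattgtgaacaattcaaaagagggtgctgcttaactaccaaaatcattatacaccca
The Egr2 window at 47463 bp and the Egr3 window each held an AP-1 match (TGAGTCA at bases 48 to 54 and TGACTCA at bases 138 to 144, counted from the first base of the window). The remaining 3 windows held no match to these strings.

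The 10 libraries held between 14988590 and 36342635 insertions inside the listed regions, with the SKG iNKT1 libraries at 17214764 and 17454220 and the BALB/c iNKT1 libraries at 36342635 and 24735873. Replicates of a group correlated over all regions with Pearson's r of 0.954 to 0.981. Start regions were listed for 3 of 3 T cell markers, 4 of 4 iNKT1 and 4 of 4 iNKT2 markers, 1 of 3 myeloid markers and 0 of 3 each for B cells and immature thymocytes. The iNKT1 markers separated the subsets as labelled, as at Ifng, where the start region ranged from 61.3 to 73.8 CPM in the iNKT1 libraries and from 6.94 to 11.5 CPM in the iNKT2 libraries. CPM are the insertions of a region scaled by the library's normalised total in all listed regions. Of the iNKT2 markers, Il17rb was higher in every iNKT2 library (15.1 to 18.9 CPM) than in any iNKT1 library (6.74 to 9.26 CPM), whereas Gata3 (2.45 to 5.06 CPM) and Zbtb16 (21.6 to 39.8 CPM) overlapped between the subsets. The fourth, Ccr7, was at 12.5 to 19.4 CPM in iNKT1, 19.4 to 26.0 CPM in BALB/c iNKT2 and 35.1 to 47.5 CPM in SKG iNKT2, so that it also moved with the genotype within the iNKT2 gate, and its part in the results was not tested. The myeloid marker listed, Itgam, reached at most 3.91 CPM. At the iNKT17 gene Il17a, the start region ranged from 4.49 to 6.18 CPM in BALB/c iNKT2, from 0.624 to 1.75 CPM in SKG iNKT2 and up to 0.264 CPM in iNKT1, so that this marker moved with the genotype within the iNKT2 gate, while Il23r, another iNKT17 marker, overlapped there between BALB/c (2.76 to 5.57 CPM) and SKG (3.10 to 4.32 CPM). The part of iNKT17 cells in the results was not tested.

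**Figure D1:**
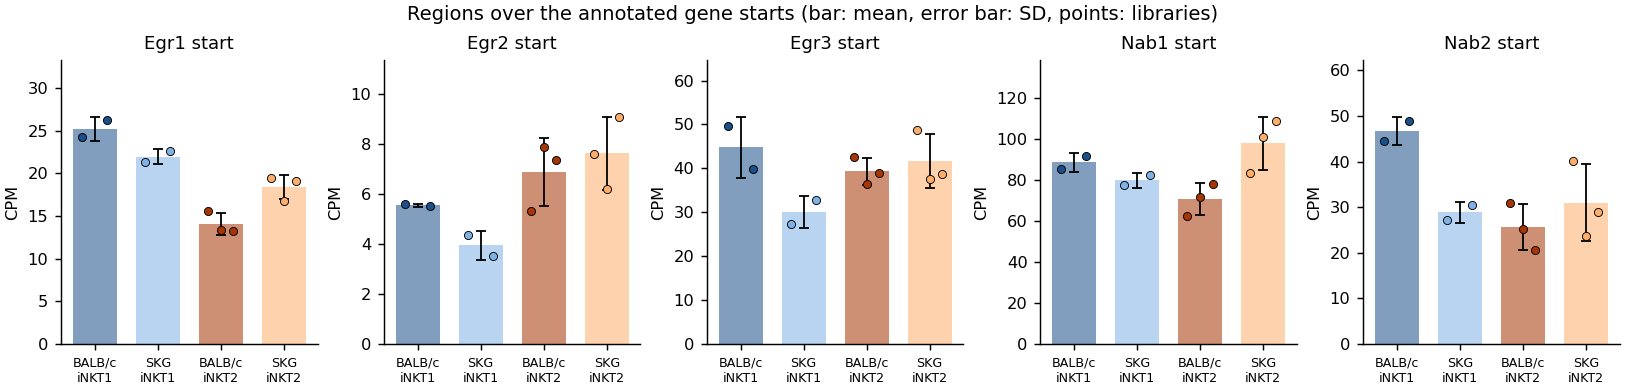
Accessibility in CPM of the region over each annotated gene start (y axis, linear from 0) in the 4 groups (x axis), with bars at the mean, error bars of 1 SD and points for libraries. Egr1 and Nab2 start regions were highest in BALB/c iNKT1, SKG iNKT1 was lowest at Egr2 and Egr3, and SKG iNKT2 lay above BALB/c iNKT2 at Nab1.

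All 5 gene starts lay in a listed region with insertions in every library. The Egr1 start region (chr18:34859771-34860102, over the 5' UTR) held 24.2 and 26.2 CPM in the BALB/c iNKT1 libraries, 21.3 and 22.6 CPM in SKG iNKT1, 15.6, 13.4 and 13.2 CPM in BALB/c iNKT2 and 19.4, 16.8 and 19.1 CPM in SKG iNKT2. Every iNKT1 library lay above every iNKT2 library of this region. In BALB/c cells the iNKT2 level was lower by a log2 change of -0.84 ± 0.14 (SE; adjusted p = 1.2e-04), and in SKG cells the difference of -0.25 ± 0.15 did not pass (adjusted p = 0.16). The BALB/c call was lost with the GC trend removed (-0.48, adjusted p = 1.8e-02) and with quantile normalisation in voom (-0.44, adjusted p = 1.2e-02). The order was BALB/c iNKT1, SKG iNKT1, SKG iNKT2, BALB/c iNKT2, and no pair of neighbours in it passed the test where one was made.

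The Nab2 start region (chr10:127668091-127669070) held 44.6 and 48.9 CPM in BALB/c iNKT1, 27.2 and 30.5 CPM in SKG iNKT1, 30.9, 25.3 and 20.7 CPM in BALB/c iNKT2 and 40.2, 23.7 and 28.9 CPM in SKG iNKT2. Only the BALB/c iNKT1 libraries stood above all others. Their difference from BALB/c iNKT2 was called (log2 change -0.86 ± 0.20, adjusted p = 1.3e-03), and their difference from SKG iNKT1 was not (-0.70 ± 0.22, adjusted p = 0.090). The call between subsets was lost without BALB/c iNKT1 replicate 1 or 2 or BALB/c iNKT2 replicate 2 or 3 (adjusted p up to 1.8e-02), with library totals (-0.57, adjusted p = 4.3e-02) and with quantile normalisation (-0.41, adjusted p = 7.8e-02). RefSeq places the Nab2 start in a neighbouring region 1358 bp further into the gene, which also overlaps the start of Nemp1 and was likewise lower in BALB/c iNKT2 (22.4 ± 2.64 CPM, SD, n = 3) against BALB/c iNKT1 (39.8 ± 1.32 CPM, n = 2), with a log2 change of -0.83 ± 0.16 (adjusted p = 3.4e-04), and it was not called without BALB/c iNKT1 replicate 1 (adjusted p = 1.3e-02).

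At Egr3 (chr14:70076661-70078255) the start region held 49.7 and 39.9 CPM in BALB/c iNKT1, 27.4 and 32.7 CPM in SKG iNKT1, 42.6, 36.5 and 39.0 CPM in BALB/c iNKT2 and 48.7, 37.5 and 38.6 CPM in SKG iNKT2. The SKG iNKT1 libraries were below all others, but their difference from BALB/c iNKT1 did not pass (log2 change -0.58 ± 0.17, adjusted p = 0.068), and the other 3 groups overlapped. The first annotated start of Egr2 (chr10:67535245-67535617) was a modest region, with 5.59 and 5.51 CPM in BALB/c iNKT1, 4.37 and 3.53 CPM in SKG iNKT1, 5.33, 7.91 and 7.38 CPM in BALB/c iNKT2 and 7.61, 6.20 and 9.10 CPM in SKG iNKT2. It was higher in SKG iNKT2 than in SKG iNKT1 (0.94 ± 0.24, adjusted p = 4.6e-03), a call lost without SKG iNKT1 replicate 1 or 2 or SKG iNKT2 replicate 3 (adjusted p up to 6.2e-02), with the replicate block (0.78, adjusted p = 2.2e-02) and with TMM-scaled voom (0.92, adjusted p = 1.0e-02). Of the 5 RefSeq starts of Egr2, 3 lay in a region 2164 bp downstream, whose group means ran from 126 CPM per kb in BALB/c iNKT2 to 179 CPM per kb in SKG iNKT1, and showed no call in any contrast. The widest Egr2 region, 510 bp downstream of the first start, held 142 ± 1.10, 141 ± 6.82, 110 ± 12.7 and 123 ± 18.9 CPM in BALB/c iNKT1, SKG iNKT1, BALB/c iNKT2 and SKG iNKT2 (mean ± SD, n = 2, 2, 3 and 3), also with no call.

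The start region of Nab1 (chr1:52499872-52501131) was the strongest of the 5 in CPM but is also wide. It held 85.5 and 91.9 CPM in BALB/c iNKT1, 77.4 and 82.5 CPM in SKG iNKT1, 62.3, 71.7 and 78.0 CPM in BALB/c iNKT2 and 83.6, 101 and 109 CPM in SKG iNKT2. Each SKG iNKT2 library exceeded each BALB/c iNKT2 library, with a log2 change of 0.47 ± 0.13 that missed the threshold (adjusted p = 1.2e-02). Libraries of BALB/c and SKG iNKT2 with the same replicate number deviated together over all regions, although replicates 2 and 3 also did so across numbers. In a fit of the iNKT2 libraries alone with that number as a block, the Nab1 start was called higher in SKG iNKT2 (0.47 ± 0.08, adjusted p = 7.8e-05). Per kb, the Egr1 start was at 75.9 and the Nab1 start at 70.4 CPM in BALB/c iNKT1, above Nab2 (47.7), Egr3 (28.1) and the first Egr2 start (14.9).

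**Figure D2:**
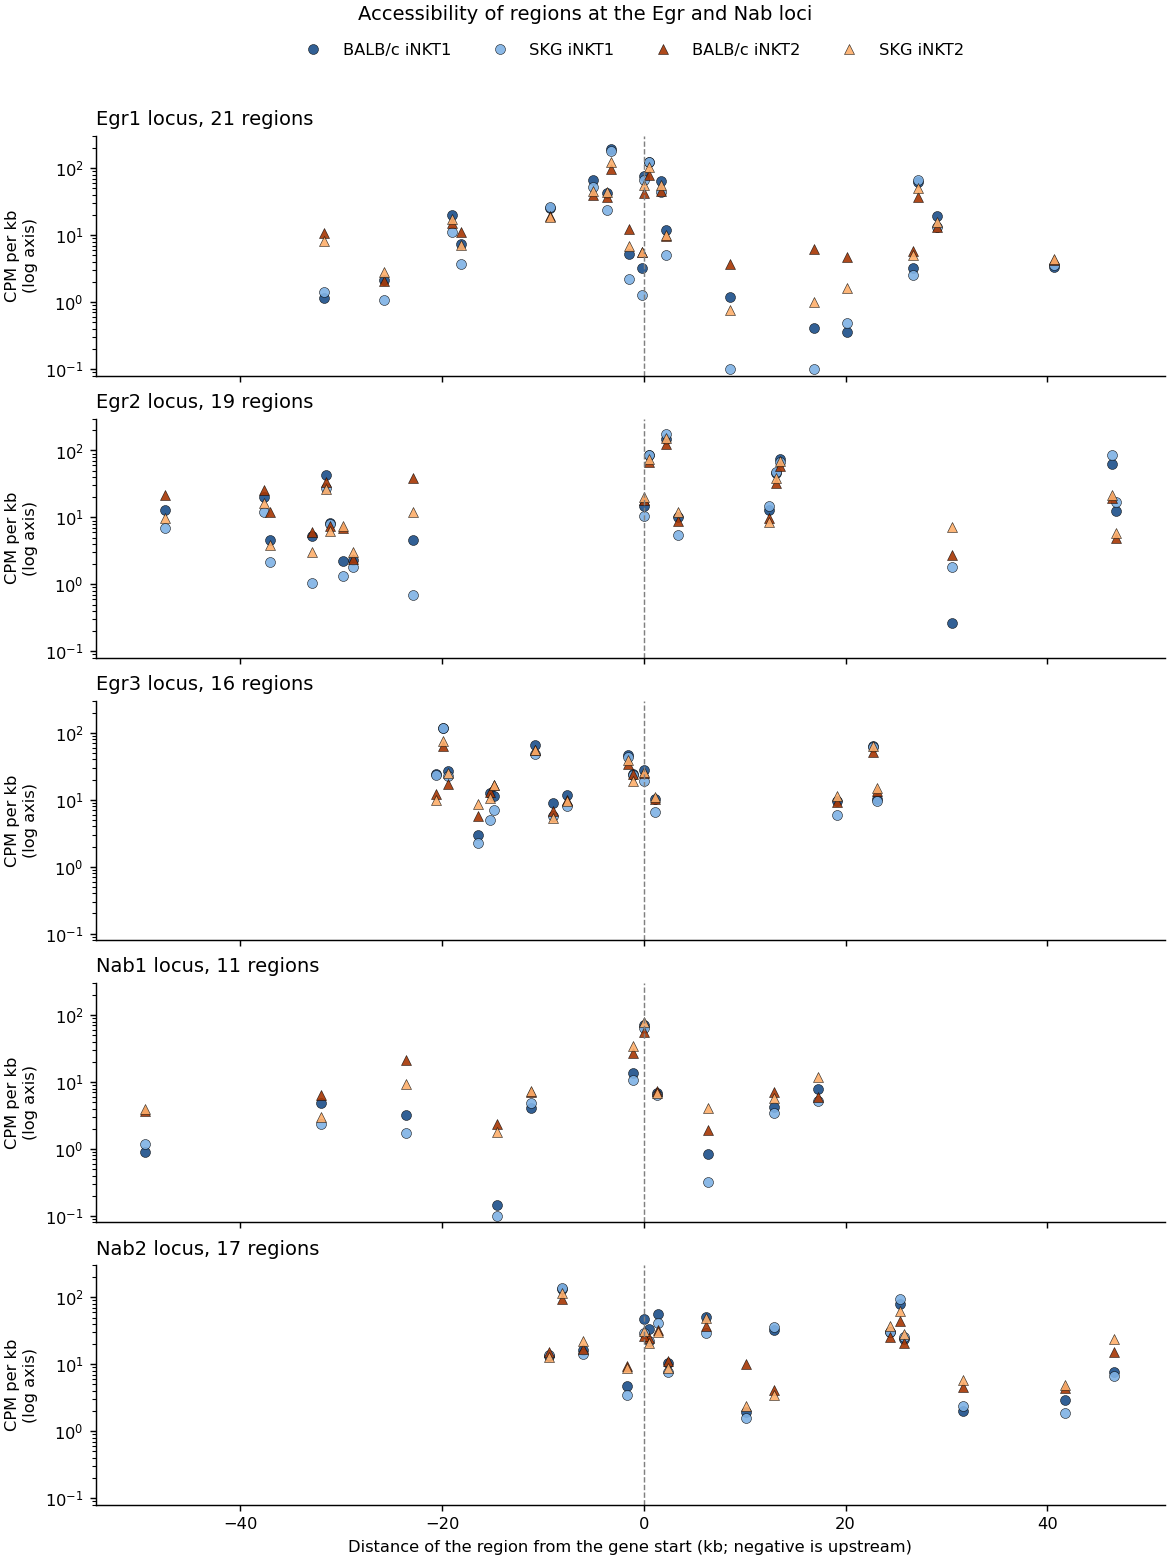
Group means in CPM per kb (y axis, log scale; values under 0.1 are drawn at 0.1) of each of the 84 regions against distance from the gene start in kb (x axis, negative upstream), 1 panel per locus and 1 symbol per group. Groups lie close together at the strong regions near the starts and spread apart at some weaker ones. These include distal regions, such as Egr2 at 22933 bp upstream and Egr1 at 16831 bp downstream, and regions near a start, such as Egr1 at 1491 bp upstream.

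A region was called at an adjusted p under 0.01 over all 94823 regions, and calls of at least 4-fold were counted apart. Between BALB/c iNKT1 and iNKT2 cells, 16 of the 84 regions were higher in iNKT2 and 15 were lower. Over all regions 25.7% were called higher and 23.4% lower in this contrast, so that the members' shares of 19.0% and 17.9% were below the background. With the 4-fold limit, 8 were higher (background 15.5%) and 1 lower (6.36%). The median log2 change of the members was -0.06, against 0.06 for all regions. Without BALB/c iNKT1 replicate 1, 9 were called higher and 7 lower. Library totals without TMM factors, which moved the median of all regions to 0.34, gave 19 higher and 9 lower, and quantile normalisation gave 13 and 6. Of the 16 higher regions, 13 lay more than 2 kb from the start, and their median was 6.14 CPM per kb and 46.1% GC. Of the 15 lower regions, 10 lay beyond 2 kb, with a median of 49.3 CPM per kb and 57.4% GC. Of the 53 members not called, 43 lay beyond 2 kb, with a median of 11.1 CPM per kb and 52.8% GC.

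At Egr1, 4 regions were higher in BALB/c iNKT2 and 5 lower, and the lower ones included the start, the region 531 bp into the gene (117 ± 0.253 CPM in BALB/c iNKT1 against 75.4 ± 5.64 CPM in BALB/c iNKT2) and a strong region 3275 bp upstream (64.7 ± 0.620 against 32.9 ± 6.45 CPM). Of the higher ones, the region 16831 bp downstream (chr18:34876654-34877032) held 0.179 and 0.132 CPM in BALB/c iNKT1 and 3.17, 1.90 and 2.02 CPM in BALB/c iNKT2. That is a log2 change of 3.85 ± 0.58 (adjusted p = 3.5e-05). A second, 20131 bp downstream, held 0.0597 and 0.264 CPM in BALB/c iNKT1 and 2.38, 2.06 and 1.98 CPM in BALB/c iNKT2 (3.82 ± 0.63, adjusted p = 8.3e-05). Both are intergenic, with Egr1 as the nearest coding gene, and in both every iNKT2 library was above every iNKT1 library of BALB/c cells. Both changes rest on few insertions in BALB/c iNKT1, 9 and 8. When single libraries were left out, they ran from 3.60 to 4.15 and from 3.03 to 5.05. The region 31752 bp upstream lies in an intron of Kdm3b, a histone demethylase gene, nearest to the start of Reep2, and rose from 0.491 ± 0.320 to 4.61 ± 0.785 CPM (3.14 ± 0.43, adjusted p = 1.4e-05).

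At Egr2, 5 regions were higher in BALB/c iNKT2 and 2 lower. The region 22933 bp upstream (chr10:67512214-67512542, intergenic) held 1.64 and 1.37 CPM in BALB/c iNKT1 and 9.88, 12.3 and 15.6 CPM in BALB/c iNKT2. The log2 change was 3.05 ± 0.33 (adjusted p = 1.5e-06). The regions 37078 bp and 29800 bp upstream also rose, by log2 changes of 1.40 ± 0.26 and 1.66 ± 0.32, the second not without BALB/c iNKT1 replicate 1 (adjusted p = 1.4e-02). Downstream, the region at 46438 bp, which lies in an intron of the noncoding Gm32364 and nearest to Ado, held 20.2 and 22.7 CPM in BALB/c iNKT1 and 7.18, 5.42 and 6.97 CPM in BALB/c iNKT2 (-1.72 ± 0.18, adjusted p = 9.5e-07). So the called Egr2 regions upstream were higher and those furthest downstream lower in iNKT2, apart from a region 30554 bp downstream that rose from 0.103 ± 0.104 to 1.06 ± 0.151 CPM (3.47 ± 0.56, adjusted p = 7.2e-05). That change rests on 5 insertions in BALB/c iNKT1, ran from 2.58 to 4.93 when single libraries were left out, and was not called with quantile normalisation (2.06, adjusted p = 2.1e-02).

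At Egr3, edgeR called 0 of 16 regions higher in BALB/c iNKT2 and 3 lower, with 7 at an unadjusted p under 0.05 in either direction. DESeq2 also called 0 and 3, voom 0 and 4 with TMM factors and 0 and 1 with quantile normalisation, and the replicate block 1 and 3. In introns of Pebp4, the region 19949 bp upstream of Egr3 held 43.0 and 42.5 CPM in BALB/c iNKT1 and 26.5, 21.8 and 20.9 CPM in BALB/c iNKT2 (-0.89 ± 0.15, adjusted p = 1.2e-04), a call lost with quantile normalisation (-0.45, adjusted p = 1.0e-02). Its neighbour at 20610 bp fell by 0.97 on the log2 scale (SE 0.22, adjusted p = 1.4e-03), a call lost without either BALB/c iNKT1 library or BALB/c iNKT2 replicate 2 or 3 (adjusted p up to 2.6e-02) and with library totals (-0.68, adjusted p = 2.9e-02). Nab1 had 4 of 11 regions higher and 0 lower by edgeR, DESeq2 and voom with TMM factors, with 7 at an unadjusted p under 0.05. Voom with quantile normalisation called 2 higher and 0 lower, and the replicate block 4 and 1. The region 1101 bp upstream of Nab1 was higher in iNKT2 in BALB/c cells (1.02 ± 0.22, adjusted p = 7.8e-04). The same held in SKG cells (1.67 ± 0.23, adjusted p = 2.9e-05). The changes ran from 0.97 to 1.18 and from 1.54 to 1.81 when single libraries were left out. The BALB/c call was lost without BALB/c iNKT1 replicate 1, at a log2 change of 0.97. The Nab1 region 23583 bp upstream (chr1:52524262-52524591, in an intron of Gm553) held 0.986 and 1.15 CPM in BALB/c iNKT1 and 6.27, 7.83 and 7.26 CPM in BALB/c iNKT2. The log2 change was 2.75 ± 0.30 (adjusted p = 1.6e-06). A region 14563 bp upstream had 2 insertions in all in BALB/c iNKT1 and 0 in SKG iNKT1, against 68 in BALB/c iNKT2 and 40 in SKG iNKT2, and neither of its subset calls held with quantile normalisation (adjusted p = 4.6e-02 and 3.3e-02).

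Nab2 had 3 regions higher and 5 lower in BALB/c iNKT2, but only 5 of its 17 regions had Nab2 as the nearest coding start. The others were nearest to Nemp1 (6), Stat6 (4) or Lrp1 (2), and the region with the smallest p of all 84 lay in a coding exon of Stat6, the transcription factor of the interleukin-4 response. That region (12874 bp downstream of the Nab2 start) held 23.1 and 23.9 CPM in BALB/c iNKT1 and 3.98, 2.33 and 2.64 CPM in BALB/c iNKT2, a log2 change of -2.98 ± 0.27 (adjusted p = 2.8e-07). A few kb closer to Nab2, in a Stat6 intron 10095 bp from the start, accessibility moved the other way, from 0.956 and 0.309 CPM to 4.01, 2.78 and 2.93 CPM (2.28 ± 0.47, adjusted p = 6.1e-04), a call lost without BALB/c iNKT1 replicate 2 (adjusted p = 1.4e-02).

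Between SKG iNKT1 and SKG iNKT2 cells, 23 regions were higher in iNKT2 and 7 lower, against 18.4% and 17.6% of all regions. The shares of the members were 27.4% and 8.33%, and their median log2 change was 0.49 against 0.14 for all regions. At 4-fold, 7 were higher (background 10.2%) and 1 lower (6.96%). Library totals gave 30 higher and 4 lower, with a median of all regions of 0.32. The count of higher regions was 12 without SKG iNKT1 replicate 1 and 12 without replicate 2, and the count of lower ones was 4 without replicate 2. This comparison shares no library with that of the BALB/c subsets, although the spread was estimated over all 10. The Egr2 region 22933 bp upstream held 0.193 and 0.257 CPM in SKG iNKT1 and 3.95, 2.39 and 5.73 CPM in SKG iNKT2 (4.11 ± 0.51, adjusted p = 8.4e-06). At Nab1, edgeR called 6 of 11 regions higher, DESeq2 5, the replicate block 4 and voom 3 with either normalisation, with the region 23583 bp upstream rising by 2.42 ± 0.37 (adjusted p = 6.2e-05) and an intronic region 6365 bp downstream going from 3 insertions in all SKG iNKT1 libraries to 85 in SKG iNKT2 (adjusted p = 1.3e-03), the latter not called without either SKG iNKT1 library (adjusted p up to 2.2e-02) or by voom (1.1e-02 and 2.7e-02). The Nab1 region 14563 bp upstream was at least 5.61-fold higher in SKG iNKT2, since the SKG iNKT1 libraries held 0 insertions and 3 over both were taken as their upper limit, and its call was lost without either of them (adjusted p up to 2.6e-02). The Stat6 exon region near Nab2 fell again (28.1 and 24.6 CPM in SKG iNKT1, 3.71, 1.56 and 2.16 CPM in SKG iNKT2), by 3.36 on the log2 scale (SE 0.28, adjusted p = 1.8e-07).

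Some regions were called between subsets in SKG mice and not in BALB/c mice. The region 3625 bp upstream of Egr1 and one in an Egr2 intron 3357 bp downstream were higher in SKG iNKT2 than in SKG iNKT1, by log2 changes of 0.91 ± 0.13 (adjusted p = 2.6e-05) and 1.11 ± 0.20 (adjusted p = 3.0e-04), and differed by -0.17 ± 0.12 and -0.24 ± 0.18 in BALB/c cells. The test of the difference between the genotypes passed for the Egr1 region, as given under the interaction, and missed for the Egr2 region (1.35 ± 0.27, adjusted p = 1.3e-02), which passed with the replicate block (adjusted p = 1.9e-03). A weak region 225 bp upstream of Egr1 was also higher in SKG iNKT2 than in SKG iNKT1 (2.12 ± 0.47, adjusted p = 1.5e-03). In BALB/c cells it was not called (0.79 ± 0.37, adjusted p = 0.074). It held 12 insertions in SKG iNKT1 and 125 in SKG iNKT2, and voom did not call it (adjusted p = 1.7e-02 and 4.1e-02).

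**Figure D3:**
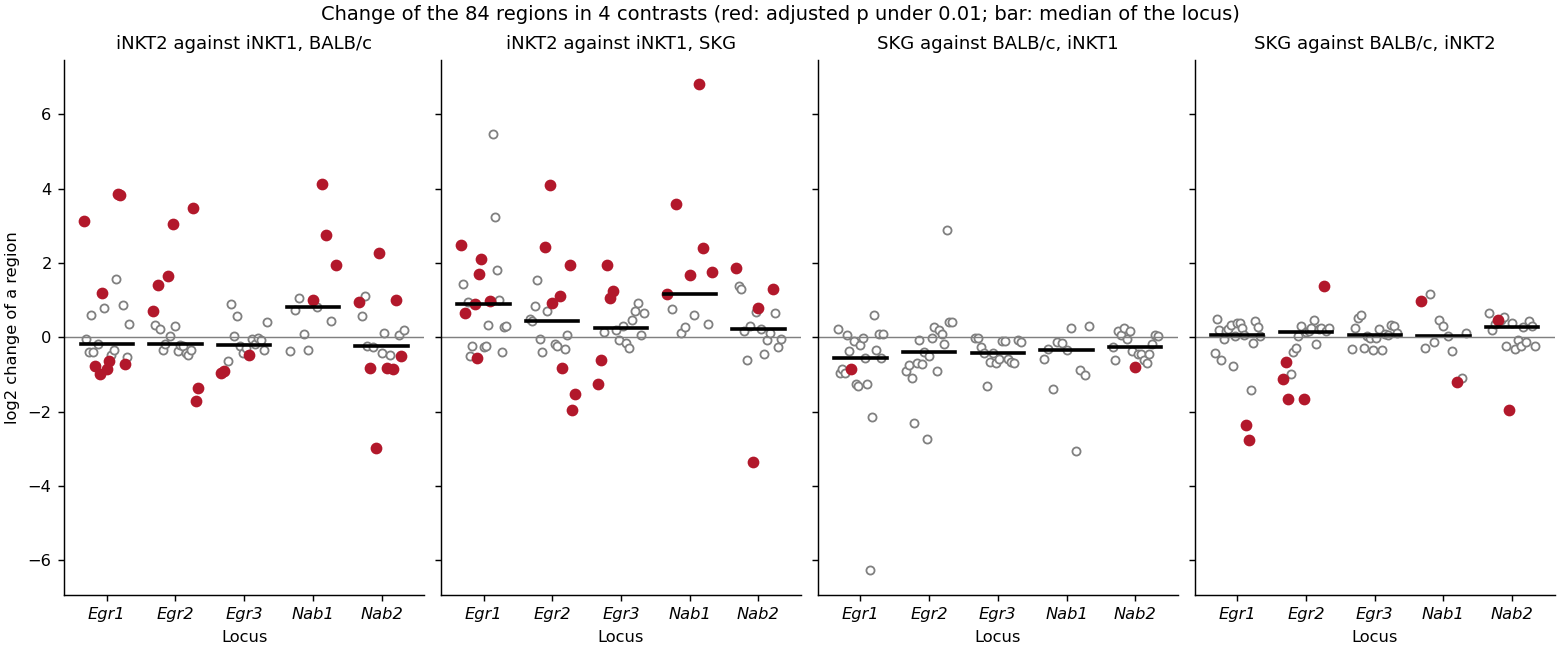
Log2 change (y axis) of each of the 84 regions in 4 contrasts, grouped by locus (x axis) in the order of genome position, with red points for adjusted p under 0.01, open points otherwise and a bar at the median of the locus. Between genotypes 65 of 84 points lie below 0 in iNKT1, where 2 regions passed, and 6 of the 8 lower red points in iNKT2 lie at Egr1 and Egr2. The values of 6.81, 5.48, -6.27 and -3.06 belong to regions with 0 insertions in SKG iNKT1 and are no measured folds.

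The question of the genotype comparison was whether weakened Zap70 signalling alters the chromatin of the genes that TCR signals induce. In iNKT2 cells, 8 of the 84 regions were lower in SKG and 3 were higher, against 10.1% and 4.02% of all regions. The shares of the members, 9.52% and 3.57%, were near the background. At 4-fold, 2 were lower (background 4.73%) and 0 were higher. Their median log2 change was 0.10 against 0.01 for all regions. Every one of the 11 regions lay more than 2 kb from the start, as did 55 of the 73 members not called. Of the 8 lower ones, 6 were also higher in iNKT2 in the comparison of the BALB/c subsets, which shares the BALB/c iNKT2 libraries. Over all regions the same held for 68.3% of the 9619 called lower in SKG iNKT2, so nothing is read from that count. Library totals gave 0 higher and 8 lower. With the replicate number as a block, in a fit of the iNKT2 libraries alone, all 11 calls remained and 11 were added. That gave 11 lower and 11 higher. The share of all regions called with the block is not given here, so nothing about the members is read from that rise. The added ones included the Nab1 start and the region 531 bp into Egr1 (0.39 ± 0.08, adjusted p = 5.1e-04 with the block and 2.0e-02 without).

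Egr2 had the most regions of lower accessibility in SKG iNKT2, 4 of its 19, all upstream. The region 37078 bp upstream held 8.16, 5.32 and 5.52 CPM in BALB/c iNKT2 and 1.93, 1.75 and 2.43 CPM in SKG iNKT2. No SKG library reached the lowest BALB/c library, and the log2 change was -1.65 ± 0.23 (adjusted p = 1.0e-04). It held 2.54 and 2.25 CPM in BALB/c iNKT1 and 1.16 and 1.09 CPM in SKG iNKT1, a difference of the same sign that did not pass (-1.09 ± 0.33, adjusted p = 0.076). The region 22933 bp upstream fell from 9.88, 12.3 and 15.6 CPM in BALB/c iNKT2 to 3.95, 2.39 and 5.73 CPM in SKG iNKT2, and its log2 change was -1.67 ± 0.26 (adjusted p = 2.6e-04). In iNKT1 cells this region was weak in both genotypes, at 1.64 and 1.37 CPM in BALB/c and 0.193 and 0.257 CPM in SKG (-2.73 ± 0.58, adjusted p = 1.2e-02). The other 2 were chosen after their values were seen. The region 47463 bp upstream (chr10:67487487-67488012) held 12.4, 11.1 and 10.3 CPM in BALB/c iNKT2 and 4.84, 4.55 and 6.34 CPM in SKG iNKT2 (-1.11 ± 0.19, adjusted p = 5.3e-04). At 37624 bp (chr10:67497154-67497851, an exon of the noncoding Gm32255) the levels were 17.8 ± 2.22 CPM (SD, n = 3) in BALB/c iNKT2 and 11.4, 10.3 and 12.3 CPM in SKG iNKT2 (-0.65 ± 0.15, adjusted p = 4.9e-03), and the call was lost without BALB/c iNKT2 replicate 1 or 2 or SKG iNKT2 replicate 2 or 3 (adjusted p up to 3.1e-02). In all 4 the BALB/c and SKG iNKT2 libraries did not overlap, and in iNKT1 cells both SKG libraries were below both BALB/c libraries, with 0 of the 4 called by edgeR. Of the 19 Egr2 regions in iNKT1, edgeR called 0, with 9 at an unadjusted p under 0.05, while DESeq2 called 1 higher and 1 lower, voom 0, and the replicate block 1 higher and 6 lower.

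At Egr1 the 2 lower regions were downstream and weak. The region 16831 bp downstream held 3.17, 1.90 and 2.02 CPM in BALB/c iNKT2 and 0.208, 0.276 and 0.674 CPM in SKG iNKT2. Its log2 change was -2.75 ± 0.46 (adjusted p = 4.4e-04). The region 8499 bp downstream rested on 109 insertions in BALB/c iNKT2 and 15 in SKG iNKT2 (1.35, 1.24 and 0.783 CPM against 0.238, 0.0459 and 0.405 CPM, log2 change -2.36 ± 0.59, adjusted p = 8.7e-03). Leaving out any 1 of 8 of the libraries, all but those of SKG iNKT1, lost that call (adjusted p up to 3.5e-02), as did the fit of 2 groups, removal of the GC trend and quantile normalisation (adjusted p = 1.1e-02, 1.3e-02 and 2.0e-02). The region 20131 bp downstream, at 2.38, 2.06 and 1.98 CPM in BALB/c and 1.31, 0.459 and 0.472 CPM in SKG iNKT2, missed the threshold (-1.42 ± 0.43, adjusted p = 2.3e-02) and was called with the replicate block (-1.54 ± 0.33, adjusted p = 1.1e-03).

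For the corepressor genes, 1 region each was lower. The Nab1 region 23583 bp upstream held 6.27, 7.83 and 7.26 CPM in BALB/c iNKT2 and 3.74, 2.07 and 3.51 CPM in SKG iNKT2 (-1.19 ± 0.23, adjusted p = 1.5e-03). The Stat6 intron region 10095 bp from the Nab2 start held 4.01, 2.78 and 2.93 CPM in BALB/c iNKT2 and 1.13, 0.918 and 0.270 CPM in SKG iNKT2 (-1.96 ± 0.40, adjusted p = 2.3e-03). In both, each SKG library was below each BALB/c library. A Nab1 region 31963 bp upstream missed the threshold in iNKT2 (-1.09 ± 0.30, adjusted p = 1.5e-02) and passed there with the replicate block (adjusted p = 8.7e-03). It had the smallest p at Nab1 between the genotypes in iNKT1, where it did not pass (-1.02 ± 0.42, adjusted p = 0.21). Egr3 had 0 regions called between genotypes in iNKT2 by edgeR, DESeq2 or voom, with 2 at an unadjusted p under 0.05, and the smallest adjusted p there belonged to a region 19436 bp upstream in a Pebp4 intron (8.34 ± 2.23 CPM in BALB/c and 12.1 ± 1.81 CPM in SKG iNKT2, 0.53 ± 0.19, adjusted p = 0.052). Calls of 6 of the 8 lower regions held without each library in turn, and the exceptions were the Egr2 region at 37624 bp and the Egr1 region at 8499 bp.

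None of the 3 calls of higher accessibility in SKG iNKT2 held without each library in turn. The region 30554 bp downstream of Egr2, nearest to Ado, held 0.972, 0.979 and 1.24 CPM in BALB/c iNKT2 and 2.59, 2.34 and 3.44 CPM in SKG iNKT2 (1.38 ± 0.32, adjusted p = 4.8e-03), a call lost without any 1 BALB/c iNKT2 library or SKG iNKT2 replicate 3 (adjusted p up to 3.0e-02) and with library totals (adjusted p = 1.1e-02). It was higher in both subsets of SKG mice, with 0.0299 and 0.176 CPM in BALB/c iNKT1 and 0.707 and 0.706 CPM in SKG iNKT1, where it missed the threshold (2.89 ± 0.66, adjusted p = 1.7e-02). An intronic Nab1 region 17254 bp downstream held 1.66, 2.33 and 1.77 CPM in BALB/c iNKT2 and 3.06, 4.04 and 4.38 CPM in SKG iNKT2 (0.97 ± 0.24, adjusted p = 8.6e-03), not called in the fit of 2 groups, with library totals or without weak regions (adjusted p up to 2.1e-02). The third, chosen after its values were seen, lay 25804 bp downstream of Nab2 and 222 bp from the start of Stat6, with 21.0, 20.7 and 19.7 CPM in BALB/c and 29.5, 26.4 and 29.1 CPM in SKG iNKT2 (0.47 ± 0.12, adjusted p = 8.5e-03). Without single libraries, 7 of 10 omissions lost the Nab1 call (all but both SKG iNKT1 libraries and SKG iNKT2 replicate 1) and 10 of 10 lost the call near Stat6 (adjusted p up to 4.0e-02 and 6.0e-02). The count of higher regions was 1 without BALB/c iNKT1 replicate 1 or 2 and 0 without BALB/c iNKT2 replicate 2 or 3 or SKG iNKT2 replicate 3.

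**Figure D4:**
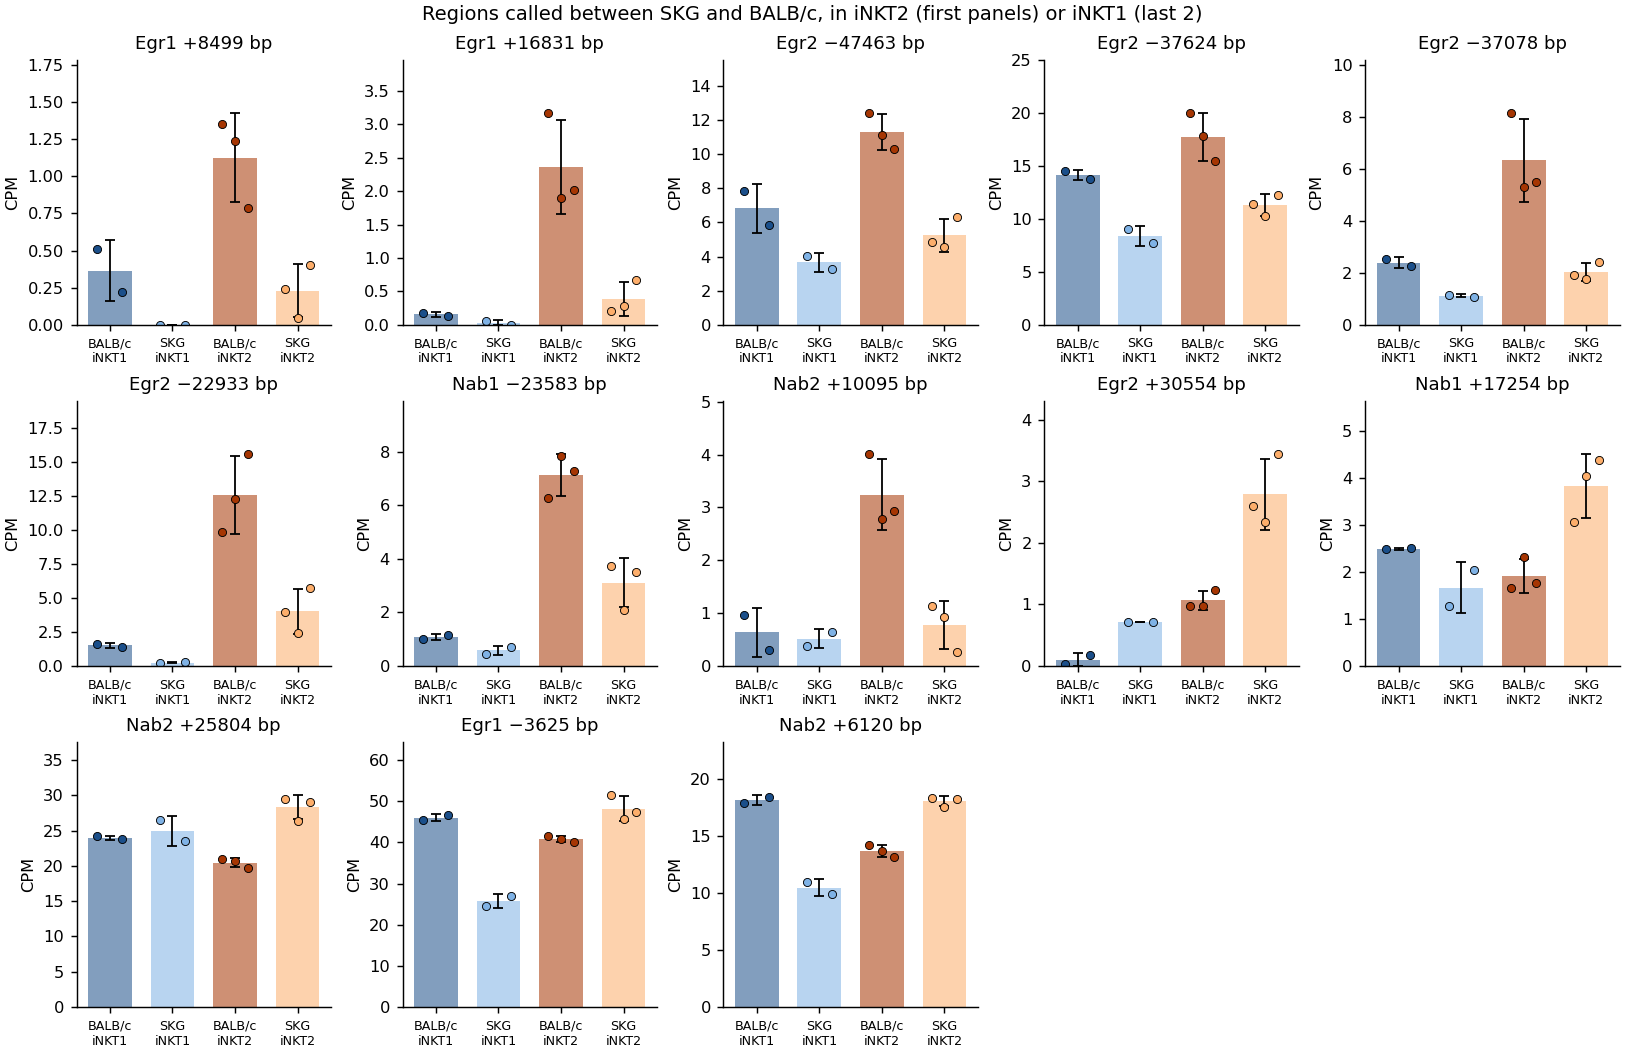
Accessibility in CPM (y axis, linear from 0) in the 4 groups (x axis) of the 13 regions called between genotypes, 8 lower and then 3 higher in SKG iNKT2, and last the 2 lower in SKG iNKT1. Each title gives the gene and the distance from its start in bp, bars are means, error bars 1 SD and points libraries. In the first 8 panels the SKG iNKT2 libraries lie below all BALB/c iNKT2 libraries.

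In iNKT1 cells, 2 of the 84 regions (2.38%) were lower in SKG and 0 higher by edgeR, against 1.42% and 0.662% of all regions. DESeq2 called 4 lower and 1 higher, and voom with TMM factors 1 and 0. The edgeR fit of the iNKT1 libraries alone called 18 lower and 0 higher, and that with the replicate block 18 and 1. The shares of all regions called in these alternative fits are not given here, so nothing about the members is read from their counts. The region 3625 bp upstream of Egr1 (chr18:34855100-34856198, intergenic) held 45.4 and 46.7 CPM in BALB/c iNKT1 and 24.5 and 26.9 CPM in SKG iNKT1 (-0.84 ± 0.14, adjusted p = 1.7e-03). The region 6120 bp downstream in a Nab2 intron held 17.9 and 18.5 CPM in BALB/c iNKT1 and 10.5 ± 0.737 CPM (SD, n = 2) in SKG iNKT1 (-0.80 ± 0.16, adjusted p = 8.7e-03). The genotypes did not overlap in either region. The Egr1 call was lost with quantile normalisation (adjusted p = 1.0e-02), and the Nab2 call there (3.4e-02), with TMM-scaled voom (1.3e-02), library totals (1.4e-02) and GC removal (1.0e-02). Without any 1 of the 4 iNKT1 libraries the count was 0, without BALB/c iNKT2 replicate 2 or 3 it was 1, and without BALB/c iNKT2 replicate 1 or SKG iNKT2 replicate 1 it was 4.

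Beyond the calls, the estimated change in SKG iNKT1 was negative for 65 of the 84 regions (77.4%, against 52.7% of all regions), at a median log2 of -0.38 against -0.03, and 30 of the 84 had an unadjusted p under 0.05 in either direction (35.7%, against 17.1% of all regions). At Egr3, 16 of 16 estimates were negative. The medians by locus were -0.54 at Egr1, -0.39 at Egr2, -0.43 at Egr3, -0.33 at Nab1 and -0.25 at Nab2. The member median stayed negative in each alternative, at -0.24 with quantile normalisation and at -0.33 with the GC trend of each library removed. Summed over the 16 Egr3 regions, the levels were 298 ± 10.3 CPM in BALB/c iNKT1 and 247 ± 19.9 CPM in SKG iNKT1, and over the 21 Egr1 regions 394 ± 1.89 and 339 ± 2.21 CPM. In iNKT2 the same sums were 235 ± 8.40 CPM in BALB/c and 254 ± 8.80 CPM in SKG for Egr3, and 275 ± 7.28 and 325 ± 12.5 CPM for Egr1. These sums were not tested. The SKG iNKT1 libraries also had fewer insertions than the BALB/c iNKT1 libraries, and the part of depth was not tested.

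A test of the difference between the genotype changes of the subsets called 2 members (2.38%), both positive, and 0 negative, against 0.446% and 0.479% of all regions. DESeq2 called 3 and 0, and 24 of the 84 had an unadjusted p under 0.05. The Egr1 region 3625 bp upstream was lower in SKG in iNKT1 and, at 41.6, 40.8 and 40.0 CPM in BALB/c and 51.5, 45.6 and 47.5 CPM in SKG iNKT2, higher by its estimate in iNKT2 (0.24 ± 0.11, adjusted p = 0.12). The interaction was 1.08 ± 0.17 (adjusted p = 3.7e-03). For the Nab2 intron region at 6120 bp, the iNKT2 libraries held 14.2, 13.7 and 13.2 CPM in BALB/c and 18.4, 17.6 and 18.3 CPM in SKG (0.40 ± 0.13, adjusted p = 0.032), and the interaction was 1.20 ± 0.21 (adjusted p = 5.7e-03). Library totals and quantile normalisation lost both calls (adjusted p = 1.1e-02 and 2.5e-02 for Egr1, 1.9e-02 and 1.6e-02 for Nab2), and removal of the GC trend lost that of Nab2 (1.7e-02). The count was 1 without SKG iNKT2 replicate 2 and 0 without any 1 iNKT1 library, BALB/c iNKT2 replicate 2 or 3, or SKG iNKT2 replicate 3. For Egr2, whose 4 upstream regions were lower in SKG in both subsets by their estimates, the interaction passed in 0 regions by edgeR, with 1 at an unadjusted p under 0.05, in 1 by DESeq2, in 1 with the replicate block and in 0 by voom, and it was -0.56 ± 0.41 at 37078 bp and 1.06 ± 0.68 at 22933 bp.

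Motif strings gave the following counts in the central 300 bases. The NFAT string was found in 25 of the 84 members and in 23.4% of all regions, the AP-1 string in 12 (10.6%), the Runx string in 17 (30.3%), the Egr string in 6 (2.51%), the CArG box in 3 (1.37%), the ETS string in 2 (1.65%) and the cyclic AMP response element in 0 (0.904%). Of the 8 regions lower in SKG iNKT2, 4 held the NFAT string, 1 the AP-1 string, 1 the Runx string and 0 the Egr string. Of the 15 regions lower in iNKT2 in the BALB/c comparison, 3 held the Egr string and 2 the CArG box, while 0 of the 16 higher ones held either. Of the 53 members not called there, 3 held the Egr string and 1 the CArG box. The median GC was 57.4% in the lower and 46.1% in the higher regions, and the part of GC in these counts was not tested. A string match is a description of sequence and no evidence of binding.

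Other genes of the pathway were counted by the same positional rule. Of all regions, 25.7% were called higher and 23.4% lower in iNKT2 in BALB/c cells, and 18.4% and 17.6% in SKG cells. Between genotypes, 4.02% were higher and 10.1% lower in SKG iNKT2, and 0.662% and 1.42% in SKG iNKT1. The counts of single genes are small and were not tested against these shares. Of the genes upstream, Zap70 itself had 0 of its 25 regions higher and 15 lower in iNKT2 in each of the subset comparisons, and 0 called between genotypes in either subset. Elk3, an ETS factor partner of serum response factor, had 14 regions higher and 2 lower of 29 in BALB/c iNKT2, and 1 lower in SKG in each subset. Lat, the adaptor that Zap70 phosphorylates, had 17 regions, 4 higher and 4 lower in BALB/c iNKT2 and 1 higher in SKG iNKT2. Rasgrp1, an activator of Ras, had 15 regions, 4 higher and 3 lower in BALB/c iNKT2 and 1 higher and 1 lower in SKG iNKT2. Srf, the gene of serum response factor, had 9 regions, 2 higher and 2 lower in BALB/c iNKT2 and 1 lower in SKG iNKT2. Among the family members and partners, Egr4 had 3 regions, all higher in the iNKT2 cells of BALB/c mice, of which 2 were lower in SKG iNKT2 and 1 in SKG iNKT1 than in the BALB/c cells. Wt1, which encodes a zinc finger factor with related DNA binding, had 2 regions, both higher in BALB/c iNKT2 and 1 of them lower in SKG iNKT2. The Chd4 locus had 24 regions, with 2 higher and 4 lower in BALB/c iNKT2. Of the 245 regions at 6 genes described as Egr targets in lymphocytes, 6 were higher and 14 lower (5.71%) in SKG iNKT2, against 4.02% and 10.1% of all regions. Id3, an inhibitor of E proteins, gave 6 of those 14 among its 20 regions, and Zbtb16 gave 1 higher and 5 lower among 114.

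The start regions whose pattern over the 10 libraries was most like that of each member were found by Pearson's r of log2 CPM among 9778 start regions of coding genes. For Egr1 they were those of Dennd4a (r = 0.986), Rapgef6 (0.985) and Pigv (0.984), and 1218 start regions reached 0.9. The first Egr2 start was closest to Unc13a (0.966), Dmwd (0.950) and Ephx2 (0.949), with 22 at 0.9 or more. Egr3 was closest to Gfpt2 (0.906), Wdr25 (0.902) and Sv2a (0.871), with 2 at 0.9 or more. The Nab1 start resembled those of Cdpf1 (0.974), Crip2 (0.973) and Trp53i11 (0.968), and the Nab2 start those of Coq8a (0.963), Ccrl2 (0.936) and Kcnk7 (0.924). These correlations are over libraries that fall into 4 groups and are a description of likeness only.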

How the data were processed

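The 10 ATAC-seq libraries were grouped by the names in the labels. According to the methods of the study, the authors aligned reads to mm10 with bowtie (Bowtie 1.0 per the labels), removed mitochondrial and duplicate reads with picard, called summits with MACS2 from short fragments, expanded and merged them over all replicates, and removed chromosome Y and blacklisted regions. The deposited table holds raw counts of transposase insertions for 94823 regions. Its name speaks of normalised counts, but its values are whole numbers with unequal totals (14988590 to 36342635 within regions). Full library depth is not given in the table.

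Under R 4.3.3, counts were fitted by edgeR 4.0.16 (scaling by TMM, 1 mean per group, all 10 libraries, quasi-likelihood F tests, Benjamini-Hochberg over all regions). CPM use TMM-scaled totals, and standard errors derive from the F statistic. The fit was tried on simulated data with the same library sizes, with drops of 4-fold or more in SKG iNKT2 only. Changes at weak regions, smaller changes and other contrasts were not simulated. Alternatives were DESeq2 1.42.0, voom with limma 3.58.1 (TMM or quantile), library totals, GC trend removal over 20 bins, removal of regions under 36.2 insertions on average, the lower quartile, fits of 2 groups, a replicate block, other thresholds and windows (25 kb), and omission of each library. Where an omission leaves 1 library in a group, that lone sample is assumed to vary like the other groups. Genes come from GENCODE M21 on GRCm38, and coordinates are 1-based. Labels do not say whether replicates are separate mice, so p-values measure the spread between these libraries, which may be technical. Floors (3 insertions over a group) cover counting error only.

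Members and lists were chosen with earlier results of these data known. Regions are named if they overlap a member's start, have the smallest adjusted p of a locus in a contrast, or are called at 4-fold, and others are marked where named. Start regions hold UTR sequence, so these and the Egr1 locus are not printed. Some other sequences and listed genes, and totals that need them, are not reported here. The main fit was unpaired, with no term for the replicate number. Same-numbered BALB/c and SKG iNKT2 libraries deviated together (r = 0.455, 0.142 and 0.166), although replicates 2 and 3 also did so across numbers (r = 0.147 and 0.224). Their numbers, from the labels, were therefore used as a block, in an alternative fit only. For each contrast of 2 groups that fit held only their libraries, so it differed from the main fit in more than the block. In the other contrasts same-numbered libraries gave r of -0.0162 to 0.107, and the block was likewise fitted there only as an alternative.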

Additional observations from a re-analysis of the deposited data

Results flagged for a closer look

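A pair of regions stood out because the genotype change differed between the subsets by the interaction test. The interaction was 1.08 on the log2 scale for the region 3625 bp upstream of Egr1 and 1.20 for the region 6120 bp downstream of the Nab2 start. In both, SKG was below BALB/c in iNKT1 in 2 of 2 libraries against 2, and above it in iNKT2 in 3 of 3 libraries against 3. The adjusted p ranged from 1.8e-03 to 3.9e-02 (Egr1) and from 3.8e-03 to 4.5e-02 (Nab2) when single libraries were left out. Groups of 2 and 3 libraries were too small for a check of single outlying samples.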

How the results depend on the processing

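Counts below are of the 84 regions at an adjusted p under 0.01, higher then lower, in the order BALB/c subsets (16 and 15), SKG subsets (23 and 7), genotype in iNKT1 (0 and 2), genotype in iNKT2 (3 and 8) and interaction (2 and 0). Only values over 1.5 times from these are given for each setting. The shares of all regions called in each setting are not given, so a changed count is no result about the members. Library totals without TMM factors gave 9 lower, 4 lower, 1 lower, 0 higher and 0 interactions. Quantile voom gave 6 lower between BALB/c subsets, 15 and 4 between SKG subsets, 0 lower in iNKT1 and 0 interactions. Voom with TMM factors gave 14 higher between SKG subsets, 1 lower in iNKT1 and 5 higher in iNKT2. Removing the GC trend gave 9 lower between BALB/c subsets, 4 lower between SKG subsets, 1 lower in iNKT1 and 1 interaction. DESeq2 gave 1 higher and 4 lower in iNKT1. Without the lower quartile of regions, 0 were higher in iNKT2, and 70 of the 84 remained. Fits of 2 groups gave 18 lower in iNKT1 and 1 higher in iNKT2. With the replicate block there were 1 and 18 genotype calls in iNKT1, 11 higher in iNKT2 and 8 interactions. By the check used here, same-numbered libraries deviated together clearly only between the genotypes in iNKT2. Replicates 2 and 3 also did so there across numbers, so pairing by number was not established. The block moved the subset counts by less than 1.5 times (18 and 18, 17 and 5). At an adjusted p under 0.05 there were 23 lower between BALB/c subsets, 11 lower between SKG subsets, 1 and 11 in iNKT1, 11 higher in iNKT2 and 6 interactions. Requiring 4-fold left 8 and 1, 7 and 1, 0 lower in iNKT1, 0 and 2 in iNKT2 and 0 interactions. Within 25 kb there were 9 higher between BALB/c subsets, and 1 and 5 in iNKT2. Regions whose nearest coding start was the member gave 3 lower between SKG subsets, 1 lower in iNKT1, 1 higher in iNKT2 and 1 interaction. The windows and the 4-fold limit admit fewer regions by definition, and the cause of the other changes was not tested. Without the lower quartile, the Nab1 region 17254 bp downstream stayed in the fit but was not called in iNKT2 (0.90, adjusted p = 1.6e-02). Leaving out each library gave 9 to 16 and 7 to 18 between BALB/c subsets, 12 to 23 and 4 to 8 between SKG subsets, 0 and 0 to 4 in iNKT1, 0 to 4 and 6 to 9 in iNKT2, and 0 to 3 and 0 for the interaction. No named region reversed its sign with a call, and of 48 calls of named regions 22 held in every alternative run for them. The weakest regions rested on few insertions, such as the Nab1 region 14563 bp upstream with 0 insertions in SKG iNKT1 and 2 in BALB/c iNKT1. The part of depth in these was not tested.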
